A study of Mus musculus with 18 samples.

Results

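Solute carriers are the genes whose mouse symbol starts with Slc and a number, and they encode membrane proteins that move sugars, amino acids, ions, metals, vitamins and nucleotides across cell and organelle membranes. Their transcripts were measured here in germ cells enriched from the testes of young mice. Members were taken by symbol alone, from array probes that carry a mouse gene number: 128 solute carrier genes in 38 families had such a probe, out of 8102 genes named in the same way. A gene counted as measurable where its detection p-value, the comparison of its signal with the negative control beads of the same array, was under 0.05 on 3 or more of the 18 arrays. That left 74 solute carrier genes in 30 families, or 57.8% of those named, beside 59.4% of all named genes.

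The series set 2 mouse models of Down syndrome, Ts1Cje and Ts65Dn, beside diploid WT littermates. Both models carry an extra copy of a segment of chromosome 16. In Ts65Dn the segment is longer and sits on a small extra chromosome with a part of chromosome 17, and in Ts1Cje it is joined to another chromosome and Sod1 is disrupted. Germ cells were collected at 16-17 and at 19-20 days post partum (dpp), which gave 6 groups with 3 biological replicates each. The labels do not say how germ cells were enriched or which strain background was used.

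The first wave of spermatogenesis is still running at these ages: spermatocytes move through the long pachytene stage of meiosis, and the first round spermatids appear towards the older age. Developing germ cells sit behind a barrier of Sertoli cells and live on what these pass to them, largely lactate and pyruvate taken up by monocarboxylate carriers, while sperm later use hexose carriers as well. Mitochondrial carriers of the Slc25 family link these fuels to ATP synthesis, Slc30 and Slc39 proteins move zinc out of and into the cytosol, and sodium-proton and bicarbonate carriers set the ion balance on which sperm motility rests.

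The promoter windows of 5 genes are printed first, because these genes show the opposite courses described below. Slc30a3 and Slc2a5 are 2 of the 3 genes with the largest rises with age in WT. Slc18b1 and Slc17a7 had the largest falls, and Slc25a5 is an X-linked gene that fell. Each window runs from 250 bases before to 50 bases after the first start listed by RefSeq on build GRCm38.p6 and reads 5′ to 3′ on the strand of the gene. Capitals mark the MYB core CAACNG or TAACNG and the E2F-like core TCCCGC on either strand.
Slc30a3, chr5:31108195-31108494, minus strand: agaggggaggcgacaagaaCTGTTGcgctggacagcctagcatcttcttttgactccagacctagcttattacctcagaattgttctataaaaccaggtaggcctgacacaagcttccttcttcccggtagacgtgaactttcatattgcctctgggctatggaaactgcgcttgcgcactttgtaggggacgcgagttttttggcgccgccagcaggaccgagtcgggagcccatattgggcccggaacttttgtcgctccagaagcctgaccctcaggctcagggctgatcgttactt
Slc2a5, chr4:150119094-150119393, plus strand: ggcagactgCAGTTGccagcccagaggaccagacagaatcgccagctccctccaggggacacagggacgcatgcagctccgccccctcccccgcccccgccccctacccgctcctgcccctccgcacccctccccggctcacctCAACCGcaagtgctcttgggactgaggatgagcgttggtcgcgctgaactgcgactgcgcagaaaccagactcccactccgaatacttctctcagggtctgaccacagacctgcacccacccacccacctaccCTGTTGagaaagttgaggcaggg
Slc18b1, chr10:23796736-23797035, plus strand: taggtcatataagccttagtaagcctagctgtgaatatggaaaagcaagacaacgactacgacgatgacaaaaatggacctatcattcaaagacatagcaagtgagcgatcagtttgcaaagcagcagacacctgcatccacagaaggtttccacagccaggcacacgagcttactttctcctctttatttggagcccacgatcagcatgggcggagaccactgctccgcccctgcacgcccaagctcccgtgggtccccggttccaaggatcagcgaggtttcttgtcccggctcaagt
Slc17a7, chr7:45163671-45163970, plus strand: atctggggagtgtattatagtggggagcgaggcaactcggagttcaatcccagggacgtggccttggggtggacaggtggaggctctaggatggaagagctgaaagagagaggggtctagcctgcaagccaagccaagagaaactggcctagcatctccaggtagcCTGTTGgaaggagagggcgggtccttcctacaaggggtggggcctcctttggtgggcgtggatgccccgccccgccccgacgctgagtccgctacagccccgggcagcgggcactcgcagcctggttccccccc
Slc25a5, chrX:36795347-36795646, plus strand: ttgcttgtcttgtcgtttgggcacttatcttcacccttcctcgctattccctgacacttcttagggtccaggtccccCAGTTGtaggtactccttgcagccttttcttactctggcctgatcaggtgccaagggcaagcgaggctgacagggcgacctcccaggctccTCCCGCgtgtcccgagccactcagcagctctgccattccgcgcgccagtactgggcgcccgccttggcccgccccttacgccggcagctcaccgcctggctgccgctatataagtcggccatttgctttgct
A RefSeq window was at hand for 54 of the 74 measured genes, among them 8 genes that rose and 21 that fell with age in WT. Either form of the MYB core lay in 5 of the 8 windows of rising genes, in 8 of the 21 windows of falling genes and in 49.7% of all 32851 windows. CAACNG alone lay in 5, 7 and 35.0% of these, and TAACNG alone in 0, 2 and 23.3%. TCCCGC lay in none of the 8 and in 10 of the 21, beside 20.0% of all windows. The cyclic AMP response core TGACGT lay in 0 of 8 and in 3 of 21, beside 7.51% of all windows. The TATA box TATAAA lay in 1 of 8 and in 0 of 21, beside 13.6% of all windows. All motifs were sought on both strands, none is contained in another, and a match describes the letters only.

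The arrays detected 17083 to 19763 probes each, with a median signal of 179.9 to 226.0, and their normalised profiles correlated at 0.69 to 0.99. The first Ts1Cje replicate at 19-20 dpp stood apart, with an estimated array weight of 0.12 where an average array has about 1. At the other extreme, Ts65Dn replicate 3 at 19-20 dpp had the highest weight, 7.44. The totals of solute carrier calls for age in Ts1Cje and for Ts65Dn against Ts1Cje at 19-20 dpp are given with and without that Ts1Cje array. Overlaps, marker counts and values of single genes include it unless said otherwise. The germ cell label was set against fixed marker lists. In WT, 6 of 8 measured round spermatid markers and 4 of 4 measured pachytene to diplotene markers were higher at 19-20 dpp, and 3 of 5 spermatogonial markers were lower. Markers of somatic testis cells were also measured: 4 of 4 Sertoli, 7 of 7 Leydig, 5 of 6 peritubular and 4 of 6 macrophage genes with a named probe, while Cnn1, Csf1r and Itgam were detected on no array. The same held for the germ cell markers Izumo1, Spag4, Cks2, Mei4 and Tex12.

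**Figure D1:**
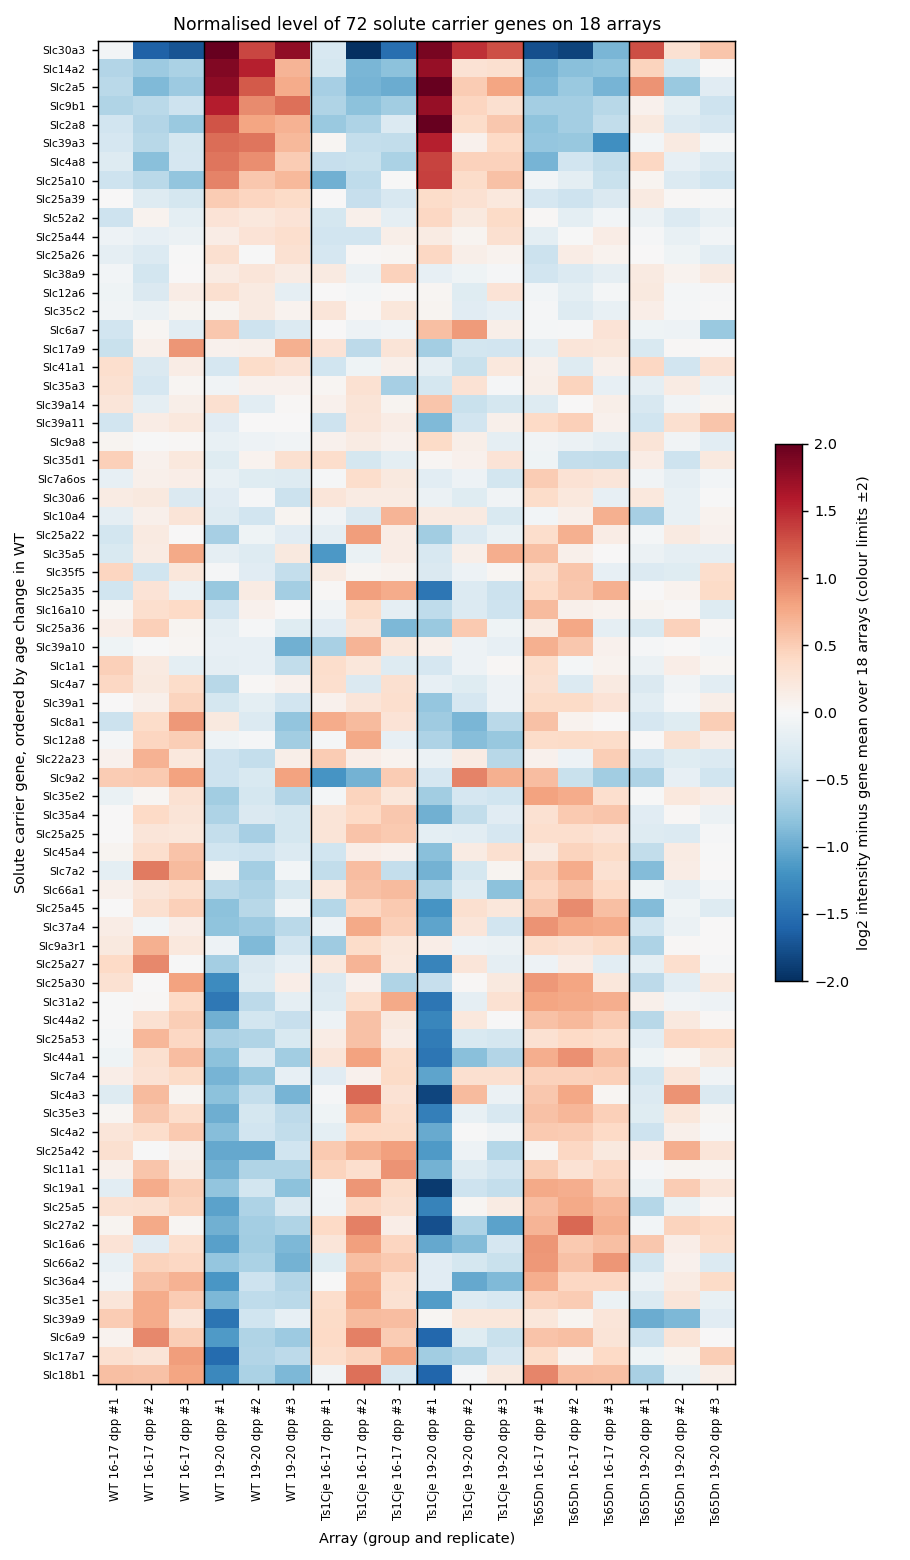
Normalised log2 intensity of 72 measured solute carrier genes (rows, ordered by their change with age in WT) on the 18 arrays (columns, in 6 groups of 3), with the mean of each gene taken away. The upper rows are high and the lower rows low on the WT and Ts1Cje arrays at 19-20 dpp, and the Ts65Dn arrays of that age are paler.

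Age in WT mice was the first comparison. More solute carrier genes fell than rose between 16-17 and 19-20 dpp: 28 were lower and 12 higher, and 34 did not pass the test. The largest rises belonged to carriers of zinc (Slc30a3), urea (Slc14a2), hexoses (Slc2a5 and Slc2a8) and sodium against protons (Slc9b1), while carriers of neurotransmitters and polyamines (Slc18b1, Slc17a7 and Slc6a9) fell most. All changes are differences of mean log2 intensity tested with limma over 21331 probes, at a Benjamini-Hochberg adjusted p under 0.05. Of all tested probes 46.7% passed, 18.5% as higher and 28.1% as lower, so the count of 40 of 74 lies near the background. The median change of the solute carriers was -0.53 on the log2 scale, and that of all tested probes was -0.23. For the 4811 named genes, each also taken by its brightest tested probe, the median was -0.31. Of these genes 50.2% passed, 788 as higher and 1625 as lower, beside 16.2% higher and 37.8% lower among the solute carriers. In a bulk RNA sample a larger share of cells of one stage and more RNA per cell cannot be told apart.

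Slc30a3 encodes the carrier that loads zinc into synaptic vesicles in neurons. Its log2 intensity was 12.33, 10.77 and 10.65 in WT at 16-17 dpp and 14.54, 13.72 and 14.16 at 19-20 dpp. The 2 ages did not overlap, although the first of the younger replicates lay well above the other two. The rise was 2.89 ± 0.50 (SE, n = 3 per age, limma adjusted p = 0.000863), and a second, dimmer probe of the gene rose by 1.80. Slc39a3, which brings zinc into the cytosol, rose by 1.36 ± 0.30 (limma adjusted p = 0.00317). Its values were 8.99, 8.76 and 8.96 at the younger age and 10.44, 10.39 and 9.96 at the older, with a gap of nearly a full log2 unit between the ages.

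Both measured hexose carriers rose. Slc2a5, the fructose carrier GLUT5, measured 5.90, 5.57 and 5.72 at 16-17 dpp, where no array detected it, and 8.24, 7.67 and 7.19 at 19-20 dpp. All 3 older arrays detected it, which sets the rise at least at 2.21-fold (limma adjusted p = 0.00354). Slc2a8, the hexose carrier GLUT8 known from the acrosome of mouse sperm, measured 9.31, 9.11 and 8.96 at the younger age and 10.95, 10.48 and 10.38 at the older. Its rise of 1.47 ± 0.34 had a limma adjusted p of 0.00432, and the ages did not overlap. The 2 other measured genes of the sugar class fell: Slc37a4, which carries glucose 6-phosphate into the endoplasmic reticulum, by 0.77 and Slc45a4 by 0.68 on the log2 scale.

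Slc9b1, a sodium-proton exchanger of the sperm tail in mouse, was undetected on every WT array at 16-17 dpp, with 6.26, 6.31 and 6.44. It reached 8.43, 7.79 and 7.96 at 19-20 dpp, a rise of at least 2.83-fold (limma adjusted p = 0.000734). The urea transporter gene Slc14a2 followed the same course, from 6.18, 6.04 and 6.14 to 8.62, 8.32 and 7.45, at least 2.98-fold (limma adjusted p = 0.00098). Like Slc2a5, these 2 genes passed the detection filter through the older arrays, so some difference with age was built into their selection: Slc2a5 was detected on 7 of the 18 arrays and the other two on 9 each. Slc4a8, a sodium-driven exchanger of chloride and bicarbonate, was detected on all arrays and rose from between 9.49 and 10.07 to 11.40, 11.25 and 10.84. The change was 1.31 ± 0.27 (limma adjusted p = 0.00221), with a clear gap between the ages.

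**Figure D2:**
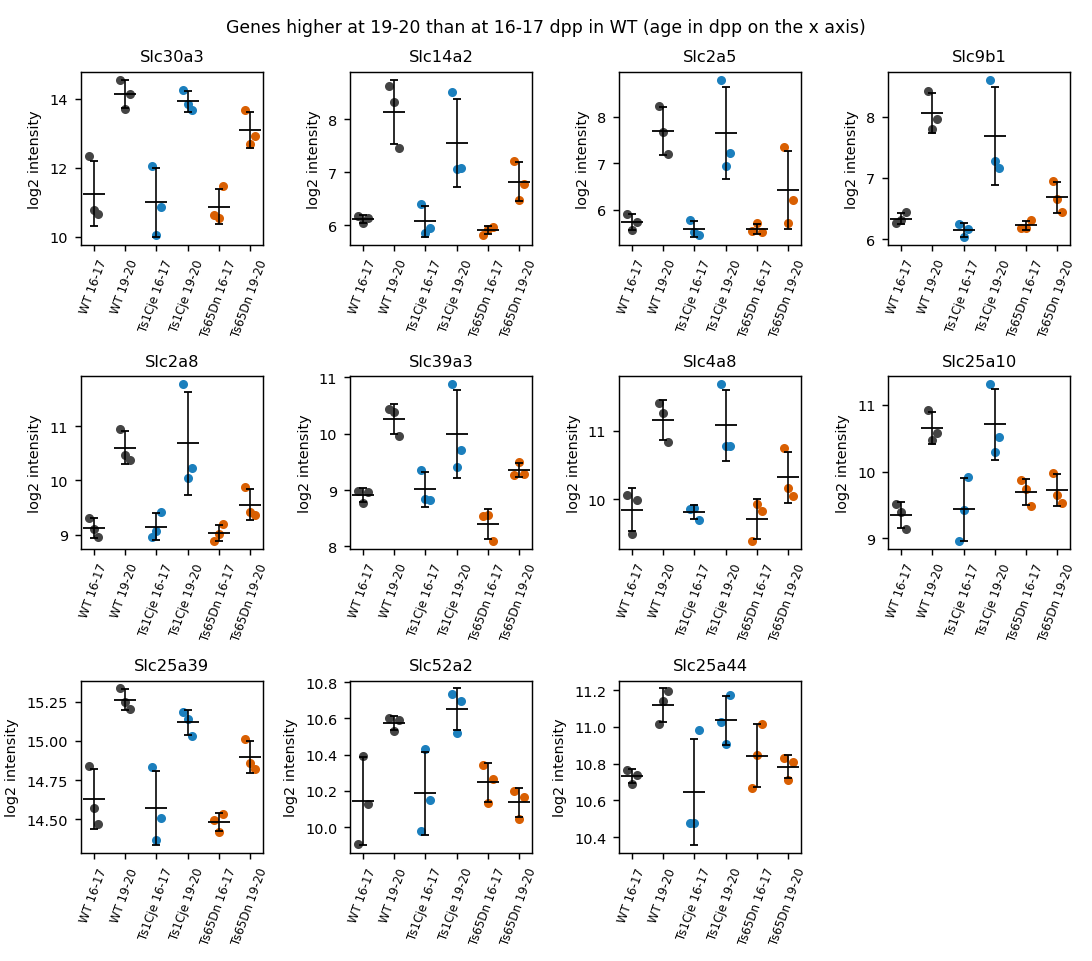
Normalised log2 intensity of 11 genes called higher at 19-20 than at 16-17 dpp in WT, by group, with each array as a point and the mean ± SD (n = 3) in black. In every panel the WT points at 19-20 dpp lie above those at 16-17 dpp, and for Slc30a3 the Ts65Dn points at 19-20 dpp, at 13.67, 12.68 and 12.94, do so too.

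Mitochondrial carriers, the largest class with 15 measured genes, split evenly, with 4 higher and 4 lower in WT. Of all tested probes 18.5% were higher and 28.1% lower. Slc25a10, which exchanges dicarboxylates for phosphate, rose from 9.52, 9.40 and 9.14 to 10.92, 10.47 and 10.57 (change 1.30 ± 0.27, limma adjusted p = 0.00237). Slc25a39, needed for mitochondrial glutathione import, rose by 0.64, and Slc25a44, a carrier of branched-chain amino acids, by 0.39. Slc25a5, the X-linked somatic ATP/ADP carrier, went the other way. It measured 14.70, 14.72 and 14.83 at 16-17 dpp and 13.32, 13.78 and 14.10 at 19-20 dpp, with no overlap (change -1.02 ± 0.32, limma adjusted p = 0.0188). Its autosomal germ cell counterpart Slc25a31 had a named probe that no array detected, so the pair cannot be set side by side.

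Slc25a53, an orphan mitochondrial carrier gene that also lies on the X chromosome, fell by 0.86 in WT (limma adjusted p = 0.0203), and its other tested probe changed by -0.34. No test of X-linked against autosomal members was made.

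Among carriers of transmitters and organic ions, Slc18b1, a vesicular polyamine carrier, measured 9.57, 9.55 and 9.76 at 16-17 dpp. At 19-20 dpp it measured 7.67, 8.32 and 8.07, and the change of -1.60 ± 0.42 was the deepest fall among the 74 genes in WT (limma adjusted p = 0.00793). Slc17a7, the vesicular glutamate carrier VGLUT1, went from 8.02, 7.97 and 8.54 to 6.16, 7.11 and 7.17 (change -1.36 ± 0.26, limma adjusted p = 0.00149). Slc6a9, the glycine carrier GlyT1, went from 11.07, 11.97 and 11.50 to 9.87, 10.40 and 10.28 (change -1.33 ± 0.32, limma adjusted p = 0.00558). In each of these genes every older WT array lay below every younger one. Slc17a9, which loads ATP into vesicles, and the proline carrier gene Slc6a7 did not pass the test, with changes of 0.12 and 0.14.

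Falls outnumbered rises in the classes of nucleotide sugars, amino acids, and vitamins and lipids. They did so over all tested probes too, with 28.1% lower and 18.5% higher, and no class was tested against these shares. Of 9 genes of family Slc35, put in the nucleotide sugar class by family number alone, 4 fell and none rose. They were Slc35a4, Slc35e1, Slc35e2 and Slc35e3, led by Slc35e1 with a change of -1.14 (limma adjusted p = 0.00357). Whether these 4 carry nucleotide sugars was not examined. Slc35c2, tied to GDP-fucose supply, measured a change of 0.15 that did not pass. Of 6 genes in the amino acid class, which includes Slc7a6os by its symbol, 2 fell, Slc36a4 by 1.13 and Slc7a4 by 0.88. The lysosomal arginine sensor Slc38a9 had the highest change, 0.32, without passing. In the class of vitamins, lipids and others 6 of 8 fell. They included Slc66a2 (-1.02), the fatty acid carrier gene Slc27a2 (-1.02), the folate carrier gene Slc19a1 (-0.998), the choline carrier gene Slc44a1 (-0.87) and the lysosomal exporter gene Slc66a1 (-0.73), while the riboflavin carrier gene Slc52a2 rose by 0.43.

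Metals gave 2 rises and 3 falls among 11 genes, beside 18.5% higher and 28.1% lower of all tested probes. Slc11a1, a divalent metal carrier best known from phagosomes of macrophages, fell by 0.996 on the log2 scale (limma adjusted p = 0.00209). Slc39a9, a zinc carrier, fell by 1.17 on its brighter probe (limma adjusted p = 0.00518). Its other probe changed by -0.32, and the probes correlated at -0.12 over the arrays, so the value for that gene rests on 1 probe. Bicarbonate and chloride carriers gave 1 rise and 1 fall among 6, the fall being that of Slc4a2, an anion exchanger, by 0.94.

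Of the 3 measured genes in the class of monocarboxylates and bile acids, Slc16a6 fell by 1.02 (limma adjusted p = 0.00305), at least 1.40-fold since no older WT array detected it. Slc16a10 and Slc10a4 measured changes of -0.36 and -0.26 and did not pass. The monocarboxylate carrier gene Slc16a7 and the sperm exchanger gene Slc9c1 were detected on no array. Genes with no named probe, among them Slc2a1, Slc2a3, Slc16a1, Slc16a3, Slc25a4 and Slc26a8, were not analysed here.

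Across settings, 10 of the 12 rises and 14 of the 28 falls in WT passed in all 6 fits that left out 1 WT array. The other rises were those of Slc25a44, which passed in 0 of the 6, and Slc52a2, in 1. Among the falls named above, Slc37a4 and Slc45a4 passed in 1 each, and Slc19a1, Slc7a4 and Slc25a53 in 2 each. Slc35e3 passed in 3, and Slc25a5, Slc27a2, Slc44a1, Slc35a4 and Slc35e2 passed in 4 each. The counts in those fits ran from 25 to 41, and the lowest came without the first WT replicate at 19-20 dpp, with 10 rises and 15 falls beside 24.9% of all probes. Markers of other cells moved over the same ages: 3 of 4 Sertoli markers fell in WT, as did 1 of 7 Leydig markers and 0 of 5 peritubular and 0 of 4 macrophage markers. The mean log2 level of the Sertoli markers ranged from 10.28 to 10.57 on the younger and from 9.18 to 9.70 on the older WT arrays, and that of the round spermatid markers from 7.37 to 8.33 and from 9.82 to 10.97. Their part in the solute carrier changes was not tested.

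**Figure D3:**
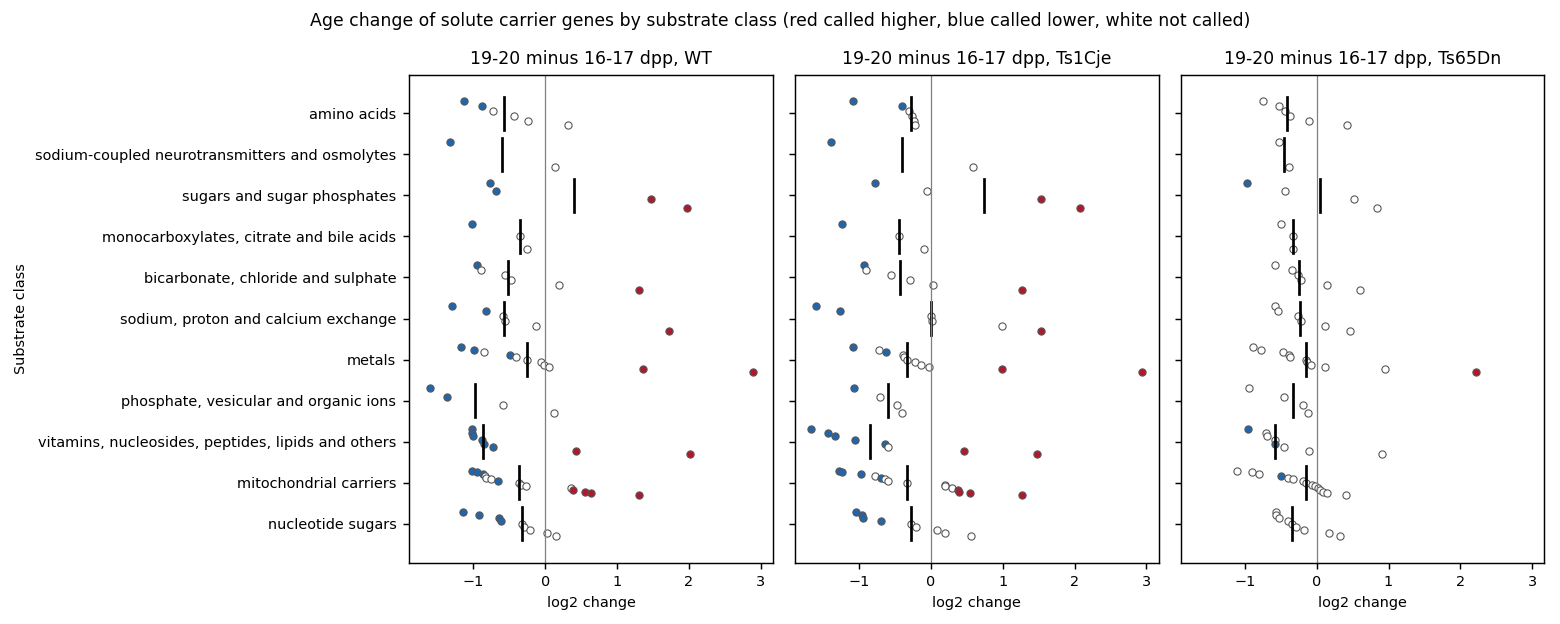
Change in log2 intensity from 16-17 to 19-20 dpp of each measured solute carrier gene (points), in 11 substrate classes, for WT, Ts1Cje and Ts65Dn, with the class median as a bar and the call of that genotype as fill. Classes follow the family number alone. Falls outnumber rises in most classes of WT and Ts1Cje, as they do over all tested probes. The sugar class holds 2 rises in each of these genotypes, and the single red point in Ts65Dn is Slc30a3.

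In Ts1Cje the same comparison gave 12 rises and 24 falls, beside 45.3% of all tested probes, 18% higher and 27.3% lower. The 12 rising genes were those that rose in WT. Of the falling genes, 20 were shared, which is 71.4% of the WT list and 83.3% of the Ts1Cje list, and no gene was called in opposite directions. These comparisons share no array. The overlap over all genes was not counted, and 50.2% of the 4811 named genes were called in WT and 50.2% in Ts1Cje. The sharing is therefore not a result about the solute carriers alone. Without the array that stood apart the counts were 9 rises and 19 falls beside 30.1% of all probes, and a fit on the 2 Ts1Cje groups alone called 14 genes, beside 16.8% of all probes in that fit.

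Slc30a3 measured 12.06, 10.06 and 10.87 in Ts1Cje at 16-17 dpp and 14.27, 13.85 and 13.68 at 19-20 dpp, a rise of 2.94 ± 0.50 (limma adjusted p = 0.000676), while its second probe changed by 0.99. Slc2a8 went from 8.96, 9.07 and 9.42 to 11.77, 10.05 and 10.23, a rise of 1.53, with the first older array far above the other two. The rise of Slc2a8 was 0.99 on the log2 scale in the lowest of the fits with 1 Ts1Cje array left out, and it passed in all 6. Slc39a3, by contrast, passed in 4 of 6 such fits.

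The deepest fall in Ts1Cje was that of Slc27a2, which takes up and activates long-chain fatty acids. It measured 10.03, 10.64 and 9.76 at 16-17 dpp and 7.87, 9.01 and 8.56 at 19-20 dpp (change -1.66 ± 0.30, limma adjusted p = 0.000928). Slc44a1 changed by -1.43 and passed too. Slc8a1, the sodium-calcium exchanger, and Slc25a35, an orphan mitochondrial carrier, were 2 of the 4 genes called only in Ts1Cje. Their changes were -1.27 and -1.24 there and -0.56 and -0.34 in WT, and the difference between the genotypes passed the test for no solute carrier gene. All 5 measured peritubular markers fell in Ts1Cje with age, with mean levels of 10.18 to 11.15 on the younger and 8.18 to 9.26 on the older arrays, and 4 of 5 spermatogonial markers fell too. Their part was not tested.

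Ts65Dn germ cells gave 5 calls with age, 1 rise and 4 falls. Of all tested probes 8.69% passed, 6.16% as higher and 2.53% as lower. The rise was that of Slc30a3, from 10.63, 10.53 and 11.46 to 13.67, 12.68 and 12.94 (2.22 ± 0.50, limma adjusted p = 0.0267). The second, dimmer probe of the gene changed by only 0.030 in Ts65Dn, and with the probes averaged the rise was 1.13 (limma adjusted p = 0.0499), so this call rests mostly on 1 probe. The ages did not overlap, and the change was in the same direction as in the other genotypes. The falls were those of Slc37a4 (-0.97), Slc66a2 (-0.96), Slc66a1 (-0.58) and Slc25a25 (-0.50), an ATP-magnesium carrier of mitochondria, all of which also fell in WT and Ts1Cje.

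None of the 5 calls passed in all 6 fits with 1 Ts65Dn array left out, which gave 0 to 2 calls. A fit on the 2 Ts65Dn groups alone called 20 genes (4 rises and 16 falls) beside 27.5% of all probes. Weighting the arrays by their estimated quality called 38 beside 44.2%, with a weight of 7.44 for Ts65Dn replicate 3 at 19-20 dpp. Both shares of the 74 lie near the background. Of the Leydig markers 4 of 7 and of the macrophage markers 2 of 4 fell with age in Ts65Dn. The mean log2 level of the Leydig markers ranged from 8.72 to 9.78 on the younger and from 7.41 to 7.62 on the older Ts65Dn arrays. That of the macrophage markers ranged from 7.87 to 8.37 and from 6.22 to 6.48. Their part was not tested.

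Each of the 12 genes that rose in WT had a smaller change in Ts65Dn, and 10 had the same sign. Their median change was 1.34 in WT, 1.27 in Ts1Cje and 0.49 in Ts65Dn. Slc25a10 shows the largest gap among them: 9.88, 9.73 and 9.49 in Ts65Dn at 16-17 dpp and 9.98, 9.66 and 9.53 at 19-20 dpp, a change of 0.02 where WT rose by 1.30, with the Ts65Dn ages overlapping. Of the 28 genes that fell in WT, 27 had a smaller change in Ts65Dn, with medians of -0.95 in WT, -0.96 in Ts1Cje and -0.53 in Ts65Dn. These genes were picked by their WT change, which favours a larger value there, and the medians carry no test.

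The difference in age change between Ts65Dn and WT was tested gene by gene, and no solute carrier gene passed, as did 0% of all tested probes. With array weights 18 genes passed, 10 with a positive and 8 with a negative difference, beside 24.5% of all probes. At an unadjusted p under 0.05 there were 10 solute carrier genes and 3082 probes. The smallest p-values were those of Slc17a7 (difference 1.24 ± 0.36), Slc25a10 (-1.28 ± 0.38) and Slc25a42 (1.10 ± 0.35), with limma adjusted p of 0.183, 0.187 and 0.207. For Ts1Cje against WT again 0% of the probes passed, and 5 solute carrier genes and 604 probes had an unadjusted p under 0.05. Slc38a9 (-0.59), Slc9a2 (1.58) and Slc35c2 (-0.42) led there, each with a limma adjusted p of 1.00.

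**Figure D4:**
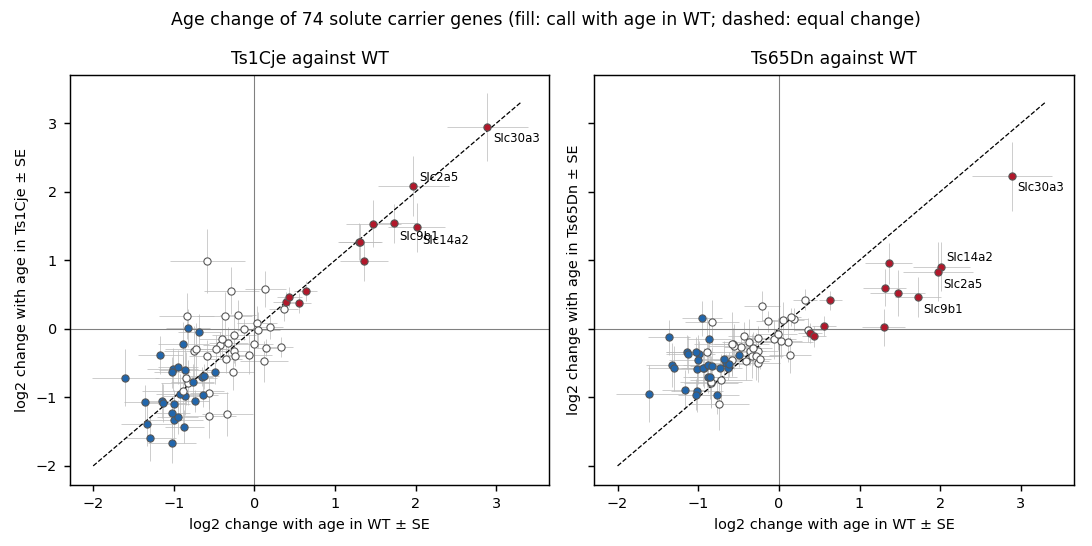
Change with age of the 74 genes in Ts1Cje (left) and Ts65Dn (right) against that in WT, in log2 units ± SE, filled red or blue where the gene was called higher or lower in WT, with the line of equal change dashed. The red points lie along the line in Ts1Cje, and the filled points lie nearer to 0 than the line in Ts65Dn, except for 1 of the 40.

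Genotype at 16-17 dpp showed no solute carrier call in any pair. The limma test passed 0.0188% of all probes for Ts65Dn against WT, 0% for Ts1Cje against WT and 0% for Ts65Dn against Ts1Cje, while 6, 3 and 5 solute carrier genes had an unadjusted p under 0.05. The smallest p in Ts65Dn against WT belonged to Slc35e2 (0.56 ± 0.18), Slc35d1 (-0.61 ± 0.22) and Slc37a4 (0.72 ± 0.27). Against Ts1Cje it belonged to Slc38a9, at -0.45, Slc25a30, at 0.90, and Slc35c2, at -0.31. In Ts1Cje against WT the leading genes were Slc9a2, Slc25a42 and Slc25a25, with differences of -1.15, 0.54 and 0.29. Slc9a2, an epithelial sodium-proton exchanger, measured 8.76, 8.79 and 9.07 in WT and 7.08, 7.32 and 8.77 in Ts1Cje, and these groups overlap.

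The measured solute carriers do not include a gene of the triplicated segments. Slc5a3, the myo-inositol carrier on chromosome 16 that both models carry in 3 copies, had a probe detected on no array, so its dosage could not be read.

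At 19-20 dpp 7 solute carrier genes differed between Ts65Dn and WT, 5 higher and 2 lower in Ts65Dn, beside 4.82% of all tested probes, 1.8% higher and 3.02% lower. The higher ones were Slc16a6, Slc25a42, Slc17a7, Slc11a1 and Slc35e2, and the lower ones Slc9b1 and Slc14a2. Slc9b1 measured 6.94, 6.66 and 6.45 in Ts65Dn against 8.43, 7.79 and 7.96 in WT, with no overlap (difference -1.38 ± 0.29, limma adjusted p = 0.0258). Slc14a2 measured 7.21, 6.47 and 6.78 in Ts65Dn against 8.62, 8.32 and 7.45 in WT (difference -1.31 ± 0.35, limma adjusted p = 0.0477). In both genes the Ts65Dn arrays lay below all WT arrays of their age. They also lay above the undetected younger WT arrays, but for Slc9b1 the lowest, at 6.45, did so by a very small margin. The lowest detected level of an array ran from 6.39 to 6.87, so the lower Ts65Dn values are near the detection limit.

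Slc16a6, a monocarboxylate carrier family member that exports the ketone body beta-hydroxybutyrate in zebrafish liver, measured 7.56, 7.15 and 7.37 in Ts65Dn. No WT array of that age detected it, at 5.93, 6.32 and 6.13, and the difference was at least 1.62-fold (limma adjusted p = 0.0171). Slc25a42, which carries coenzyme A into mitochondria, measured 7.20, 7.79 and 7.31 against 6.04, 6.04 and 6.67 in WT, also undetected there, and was at least 1.70-fold higher (limma adjusted p = 0.0266). Neither gene's groups overlap.

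Slc17a7 measured 7.62, 7.76 and 8.20 in Ts65Dn and 6.16, 7.11 and 7.17 in WT (difference 1.04 ± 0.26, limma adjusted p = 0.0393). Slc11a1 was closely spaced in Ts65Dn, at 11.94, 12.02 and 12.01, against 11.00, 11.37 and 11.36 in WT (difference 0.75 ± 0.20, limma adjusted p = 0.0471). Slc35e2 differed by 0.66 ± 0.18 (limma adjusted p = 0.0494). In all 3 genes the lowest Ts65Dn array lay above the highest WT array.

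All 7 genes also changed with age in Ts1Cje, whose arrays this comparison does not use, each in the direction opposite to its difference in Ts65Dn. The 2 genes lower in Ts65Dn rose there, by 1.54 and 1.48, and the 5 higher ones fell by 0.69 to 1.28 on the log2 scale. How many of all called probes did so was not counted, so this does not set the solute carriers apart. Deviations of same-numbered Ts65Dn and WT samples correlated at 0.18 to 0.28 at 19-20 dpp. In an alternative fit with the replicate number as a block, 23 genes passed instead of 7, of which 14 were higher and 9 lower. Of all probes 23.8% passed in that fit, 13.0% higher and 10.8% lower. Higher probes thus outnumber lower ones over all probes with the block, and lower ones outnumber higher ones without it. The 23 include all 7, and add Slc2a5, Slc2a8, Slc4a8, Slc39a3 and Slc25a10 among the lower ones.

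Leaving out 1 array at a time gave 0 to 11 calls. None passed without the first WT replicate or without Ts65Dn replicate 2 or 3, 1 without WT replicate 3, 3 without WT replicate 2, and 11 without the first Ts65Dn replicate, beside 9.47% of all probes in that last fit. Taking only genes detected on all arrays gave 0 calls among 53, scaling by medians gave 4, and array weights gave 41 (29 higher and 12 lower) beside 49.1% of all probes, 28.3% higher and 20.8% lower. At the same age 1 of 8 round spermatid and 1 of 4 pachytene to diplotene markers were lower in Ts65Dn, with median differences of -1.43 and -1.31, 1 of 2 endothelial markers was higher, and no Sertoli, Leydig, peritubular or macrophage marker passed. The mean level of the round spermatid markers was 8.44 to 9.27 in Ts65Dn and 9.82 to 10.97 in WT. Their part in the differences was not tested.

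**Figure D5:**
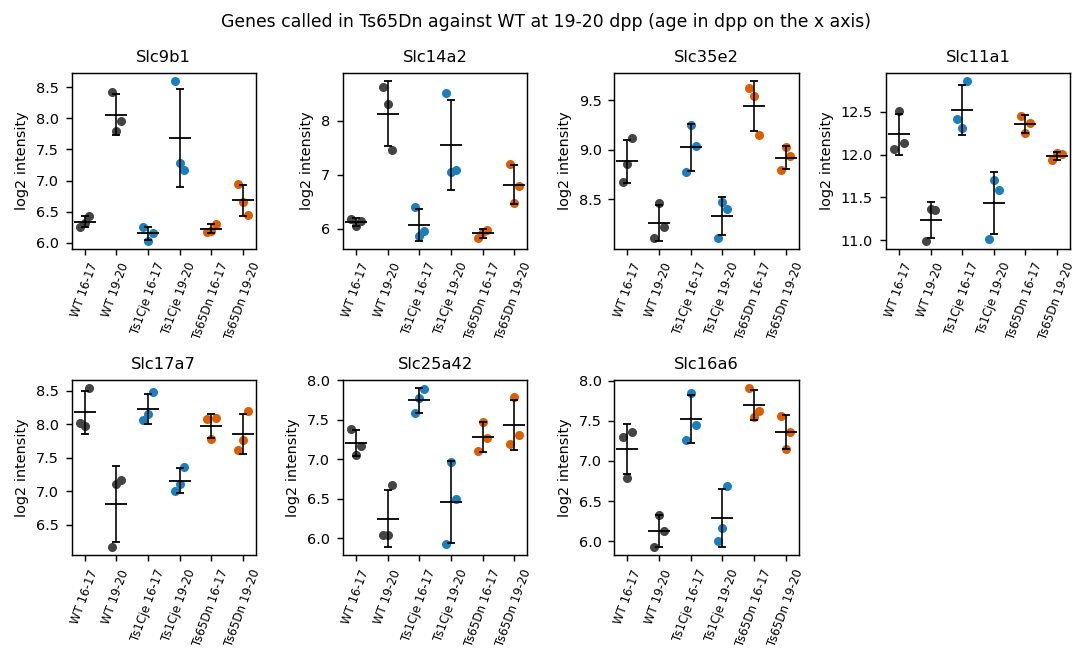
Normalised log2 intensity of the 7 genes called between Ts65Dn and WT at 19-20 dpp, by group, with each array as a point and the mean ± SD (n = 3) in black. At 19-20 dpp the Ts65Dn points of Slc9b1 and Slc14a2 lie below and those of the other 5 genes above the WT points.

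Against Ts1Cje at the same age, Ts65Dn had 13 solute carrier calls, 8 higher and 5 lower, beside 11.7% of all tested probes, 7.31% higher and 4.43% lower. The largest difference was in Slc27a2, at 9.57, 10.08 and 10.02 in Ts65Dn against 7.87, 9.01 and 8.56 in Ts1Cje, with no overlap (1.41 ± 0.30, limma adjusted p = 0.015). Slc16a6 (1.07), Slc44a1 (1.01), Slc25a42 (0.97), Slc12a8 (0.90) and Slc25a53 (0.88) were among those higher. The other probe of Slc25a53 differed by 0.19, and the average of its probes did not pass (0.54, limma adjusted p = 0.110). Slc2a8 (-1.13), Slc9b1 (-1.001) and Slc25a10 (-0.98) were lower. Slc25a10 measured 9.98, 9.66 and 9.53 in Ts65Dn and 11.30, 10.30 and 10.52 in Ts1Cje, without overlap.

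The WT arrays do not enter the difference between Ts65Dn and Ts1Cje, but they enter the shared estimate of the spread, so these calls are not independent either. All 13 genes differed in the direction opposite to their age change in WT, and 11 of the 13 were called with age there. The same count over all called probes was not made, so this does not set the solute carriers apart. With the replicate number as a block 25 genes passed, 17 higher and 8 lower, beside 25.6% of all probes. No gene passed without the first Ts1Cje replicate, which stood apart, or without Ts65Dn replicate 2 or 3, and none in a fit on these 2 groups alone. Median scaling shifted the median of all probes from 0.09 to -0.02 and gave 8 calls, 5 higher and 3 lower.

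Markers of other cells and stages differed in the same comparison. Of the spermatogonial markers 4 of 5 were higher in Ts65Dn than in Ts1Cje (median difference 1.16), and 1 of 5 peritubular markers was higher (median 1.06). Of the round spermatid markers 2 of 8 were lower (median -1.67), as was 1 of 4 pachytene to diplotene markers (median -1.19), and no Sertoli, Leydig, macrophage or endothelial marker passed. The mean log2 level of the spermatogonial markers was 8.38 to 8.70 in Ts65Dn and 7.08 to 7.90 in Ts1Cje, and that of the round spermatid markers 8.44 to 9.27 and 9.71 to 11.88. Their part in the differences was not tested.

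Ts1Cje and WT did not differ in any solute carrier gene at 19-20 dpp by the limma test, as in 0% of all probes, and 3 genes had an unadjusted p under 0.05. These were Slc39a9 (0.83 ± 0.28), Slc17a9 (-0.77 ± 0.30) and Slc6a7 (0.57 ± 0.26), each with a limma adjusted p of 1.00. The other probe of Slc39a9 went the opposite way, at -0.44, and the average of its probes differed by 0.20. For the 12 genes that rose in WT, the mean was highest in WT at 19-20 dpp in 9 and in Ts1Cje at 19-20 dpp in 3. The Ts65Dn mean at 19-20 dpp lay between the younger means and the other older means in 10 of them, and in 23 of the 28 that fell.

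Other membrane transport genes gave a comparison list of 16 measured genes. They are channels, pumps and ABC carriers, together with the organic anion transporter gene Slco3a1, the pyruvate carrier subunit gene Mpc2, Emb, which encodes a partner of monocarboxylate carriers, and Mtch2. In WT 3 rose and 4 fell with age, with a median of -0.34. The glycerol and water channel gene Aqp9 rose by 4.62, the ABC transporter gene Abcb8 by 0.82 and the mitochondrial protein gene Mtch2 by 0.87. Atp7a, the copper pump, fell by 1.15, Abcd3, a peroxisomal ABC carrier, by 1.08, the plasma membrane calcium pump gene Atp2b1 by 0.93 and Abcd2 by 0.55. In Ts1Cje 4 rose and 5 fell, and in Ts65Dn Aqp9 and Mtch2 rose and none fell.

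Of the 54 named genes that did not pass the detection filter, 48 were detected on no array and 6 on 1 or 2. Just outside the threshold lay Slc1a2 and Slc9a3 on 2 arrays and Slc22a20, Slc23a3, Slc24a4 and Slc38a4 on 1. Just inside lay Slc16a10 and Slc1a1 on 5. Of the measured genes 53 were detected on all 18 arrays, 8 have another probe that no array detected, and 2 symbols name no carrier: Slc9a3r1 is a scaffold protein and Slc7a6os lies opposite Slc7a6. Both stayed in all counts, Slc9a3r1 among the falls in WT and Slc7a6os among those in Ts1Cje. With age, 30 of the 74 were called in no genotype.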

How the data were processed

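Total RNA of 18 samples was labelled with biotin and read on Illumina MouseWG-6 v1.1 BeadArrays. Each deposited file gives, per the file headers, the mean bead intensity and the detection p-value of every probe as exported by BeadStudio (version not given in the sources used here). Deposited bead counts, also per the file headers, had medians of 33 to 37 beads per probe and were not modelled. The intensity values as deposited are neither background-subtracted nor normalised. The deposited series table holds log2 values that match quantile-normalised uncorrected intensity, and served as an alternative. Probes were named from zero-padded gene numbers in their target names: 82.6% of 11857 such numbers are mouse gene numbers in RefSeq, against 11.3% of the unpadded ones. Ribosomal protein probes were detected in 87.5% and olfactory receptor probes in 4.96% of cases.

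Intensities were corrected with limma 3.58.1 (normexp from detection p-values, offset 16), put on the log2 scale and quantile-normalised in R 4.3.3. Probes detected on 3 or more arrays (21331) entered 1 model with 6 group terms and 12 residual degrees of freedom. A gene is its brightest tested probe. "At least" folds set a group detected on no array at the lowest detected signal of each array. The procedure was tested on simulated data. The number of arrays limits the precision. Promoters come from RefSeq, and alternatives are in the closing section. Genes were named by rule: the 8 largest called rises and falls with age per genotype, the 10 largest calls or 3 smallest p-values per genotype contrast, the extremes of each class, members on the triplicated segments and a list for germ cell fuel supply. A few results are not reported here. The members and lists were chosen with earlier results of these data known.

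The labels number the replicates 1 to 3 without saying what a number shares. Deviations of same-numbered samples correlated at 0.18 to 0.28 (Ts65Dn and WT), 0.23 to 0.58 (Ts1Cje and WT) and 0.33 to 0.57 (Ts65Dn and Ts1Cje) at 19-20 dpp. At 16-17 dpp the ranges for the same pairs were -0.30 to 0.26, 0.03 to 0.64 and -0.16 to 0.35. Samples of different numbers were not set beside these, so whether a number pairs samples cannot be told. The reported tests leave the replicate number out, and it served as a block in an alternative fit only.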

Additional observations from a re-analysis of the deposited data

Results flagged for a closer look

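Slc6a7, the proline carrier gene, changed with age in opposite directions on every array of the models: Ts1Cje measured 7.31, 7.19 and 7.22 at 16-17 dpp and 7.90, 8.15 and 7.41 at 19-20 dpp, and Ts65Dn measured 7.26, 7.27 and 7.58 and then 7.21, 7.20 and 6.55. The age change in Ts65Dn minus that in Ts1Cje was -0.96 on the log2 scale. This difference was not tested, and neither age change passed alone, with limma adjusted p of 0.323 in Ts65Dn and 0.0764 in Ts1Cje. The gap between the nearest arrays of the ages was narrow, at 7.26 and then 7.21 in Ts65Dn and at 7.31 and then 7.41 in Ts1Cje. The gene was picked from the measured solute carriers for this pattern. How many of all tested probes show such a pattern was not counted, so it does not set the gene apart.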

How the results depend on the processing

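None of the called solute carrier changes turned sign under these alternatives. The median of all probes did under median scaling in 3 comparisons: Ts65Dn against Ts1Cje (0.09 to -0.02) and Ts1Cje against WT (-0.02 to 0.01) at 19-20 dpp, and the interaction of age with Ts1Cje (-0.01 to 0.02). Array weights gave 38 calls for age in Ts65Dn, 41 for Ts65Dn against WT and 27 for Ts65Dn against Ts1Cje at 19-20 dpp, and 18 for the interaction of age with Ts65Dn, beside 44.2%, 49.1%, 33.5% and 24.5% of all probes. They gave 1 each for the pairs with Ts65Dn at 16-17 dpp, beside 2.29% (WT) and 0.572% (Ts1Cje). The replicate block gave 20, 23, 25 and 1 for age in Ts65Dn, the 2 later pairs and that interaction, beside 25.3%, 23.8%, 25.6% and 1.22%. It changed no other count of calls by more than 1.5 times. For age the same-numbered deviations correlated at -0.20 to 0.41, and the labels state no pairing. Fits on the compared groups alone gave 14 for age in Ts1Cje, 20 for age in Ts65Dn, 0 for Ts65Dn against Ts1Cje at 19-20 dpp and 2 for the interaction, beside 16.8%, 27.5%, 0.0141% and 1.28%. Without the filter on dim probes the counts were 0 for age in Ts65Dn, and for the later pairs of Ts65Dn 4 with WT and 6 with Ts1Cje, beside 0.632%, 0.826% and 2.96%. With probes detected on all arrays Ts65Dn against WT gave 0 beside 3.14%. No background correction and the series table each gave 8 for age in Ts65Dn beside 9.71%. Median scaling gave 4 and 8 for the later pairs of Ts65Dn with WT and with Ts1Cje, beside 3.37% and 9.72%. The cause of these moves was not tested.

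Leaving out 1 array gave 25 to 41 calls for age in WT, 28 to 38 in Ts1Cje and 0 to 2 in Ts65Dn, while the later pairs with Ts65Dn gave 0 to 11 (WT) and 0 to 16 (Ts1Cje). The remaining comparisons gave 0. Counted over all called genes and these alternatives, 523 of 591 results for age in WT and 471 of 530 in Ts1Cje kept their call, as did 39 of 74 in Ts65Dn and, for the later pairs of Ts65Dn, 52 of 100 with WT and 112 of 191 with Ts1Cje. Dim genes near the detection limit give lower bounds only.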
